A study of Mus musculus with 123 samples.

Results

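The genes described here are 10 members of the unfolded protein response and the integrated stress response, picked by symbol from the 24134 genes measured in mouse dorsal root ganglion (DRG) neurons after sciatic nerve transection (SNT). They are the stress sensors Ern1 (IRE1), Eif2ak3 (PERK) and Atf6, the transcription factors Xbp1, Atf4, Atf5 and Ddit3 (CHOP), and the downstream genes Hspa5 (BiP), Trib3 and Asns. All 10 were measured in every data set and all passed the limit on low values. Neurons of the transected side were compared with neurons of the contralateral DRG of the same mice, in 2-month-old animals. The first set came from F1 mice of CAST/Eij males and C57BL/6 females 3 days after SNT, with 48 SNT-side and 22 control-side cells, of which 41 and 18 remained after the authors' removal of outliers. The same set has neurons pooled on each side, in 3 libraries a side that are parts of 1 lysate. The second set came from C57BL/6 mice of both sexes 7 days after SNT, with 33 SNT-side and 14 control-side cells. Its protocol label names both 3 and 7 days, and the day was taken from the sample titles. No label names the animal of a cell, so the cells of 1 side and day count as 1 sample and carry no test. By the study's methods the F1 mice were female. Day differed together with strain, sex, read length, sequencer and the neuron types picked, and these cannot be told apart.

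Values are CPM, the expected count of a gene divided by the total of its library and scaled to a common total. Total counts per library were 563462 to 839135 in the control pools, 1148849 to 2003817 in the SNT pools, 277390 to 1368842 in the day-3 control cells, 611647 to 1849130 in the day-3 SNT cells, 510014 to 1018545 in the day-7 control cells and 261351 to 965292 in the day-7 SNT cells. The side labels of the pools came from their column names. The identifier line of the deposited table pairs them the other way, which would turn the sign of every pooled difference, and the source label calls all 6 libraries intact. Atf3, a transcription factor induced by axotomy, checks the names. It was at 8.25, 21.5 and 10.6 CPM in the pools named control and at 1619, 1372 and 1409 CPM in the pools named SNT, and at day 3 it stood above every control cell in 30 of 41 SNT cells. The groups of the pools follow the column names throughout.

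The endoplasmic reticulum (ER) detects misfolded protein through 3 sensors in its membrane. IRE1 splices the Xbp1 transcript, ATF6 is cut to release a transcription factor, and PERK phosphorylates the translation factor eIF2α. The last step is shared with kinases that sense amino acid shortage, viral RNA and heme shortage, and is called the integrated stress response. It lowers general translation while the Atf4 and Atf5 transcripts are translated more. ATF4 and CHOP induce genes of amino acid supply such as Asns, and Trib3, which feeds back on ATF4. XBP1 and ATF6 induce ER chaperones such as BiP. Splicing, phosphorylation and translation are not read by these tables, which hold 1 value per gene.

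Both arms have short recognition sequences, shown here in the promoters of the 3 downstream members. Of these, Trib3 and Asns had larger ratios between sides than Hspa5 in the day-3 cells described below (Asns and Hspa5 were close to each other in the pools and at day 7). The part of either sequence in these ratios was not tested. The ER stress element reads CCAAT, 9 bases, CCACG, and is bound by ATF6 with NF-Y. The C/EBP-ATF element reads TGATGNAA and is bound by ATF4 with C/EBP proteins. The windows run from 250 bases before to 50 after the RefSeq start, 5′ to 3′ on the gene's strand, on build GRCm38.p6, and lie at chr2:34771840-34772139 (plus strand) for Hspa5, at chr2:152344011-152344310 (minus strand) for Trib3 and at chr6:7693160-7693459 (minus strand) for Asns. Capitals mark the ER stress element in Hspa5 and the C/EBP-ATF element in the other two, in Trib3 on the opposite strand.
Hspa5: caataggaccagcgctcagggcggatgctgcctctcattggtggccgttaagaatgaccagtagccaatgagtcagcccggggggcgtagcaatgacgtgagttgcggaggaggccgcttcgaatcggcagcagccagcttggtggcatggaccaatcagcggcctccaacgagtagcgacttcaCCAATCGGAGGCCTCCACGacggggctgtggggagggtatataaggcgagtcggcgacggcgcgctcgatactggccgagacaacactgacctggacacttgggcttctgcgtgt
Trib3: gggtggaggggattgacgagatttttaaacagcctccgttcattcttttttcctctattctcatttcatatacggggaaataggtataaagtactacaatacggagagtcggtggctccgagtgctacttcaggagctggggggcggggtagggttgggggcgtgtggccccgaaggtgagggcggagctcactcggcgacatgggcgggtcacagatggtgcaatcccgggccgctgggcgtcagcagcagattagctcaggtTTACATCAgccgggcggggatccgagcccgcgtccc
Asns: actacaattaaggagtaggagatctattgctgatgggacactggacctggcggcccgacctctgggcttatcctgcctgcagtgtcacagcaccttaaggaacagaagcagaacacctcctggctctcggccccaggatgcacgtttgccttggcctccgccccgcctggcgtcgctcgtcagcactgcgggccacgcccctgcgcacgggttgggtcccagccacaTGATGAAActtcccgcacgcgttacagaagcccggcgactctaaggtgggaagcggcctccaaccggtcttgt
Of the 10 members, 9 had a promoter in the table, and both strands were searched. The ER stress element was found in Hspa5 alone of these 9, with its first base 65 bases before the start, and in 0.130% of the 27025 genes. The C/EBP-ATF element was found in Asns, 23 bases before the start, and in Trib3, at position 15 after it, and in 4.06% of all genes. Neither element was matched in the windows of Xbp1, Ddit3, Atf4, Atf5, Ern1 or Eif2ak3. A match is a run of letters, not a measured binding site, and no other element was searched for.

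Per length, the members fell into an order that was led by the downstream genes Asns and Hspa5. The pooled control level per kilobase of exon (union of GENCODE M21 exons) was 185 ± 15.2 CPM per kb for Asns and 100.1 ± 3.3 for Hspa5 (SD, n = 3). Xbp1 followed at 48.9 ± 9.19 CPM per kb, Atf4 at 34 ± 4.00 and Ddit3 at 29.8 ± 5.05, and the last 2 differed by less than their spread. Atf5 was at 6.94 ± 1.24, Eif2ak3 at 5.41 ± 2.59, Atf6 at 3.3 ± 1.16, Trib3 at 1.58 ± 0.418 and Ern1 at 0.121 ± 0.111 CPM per kb. Neighbours from Atf5 to Atf6 also overlapped within their spread. The sensors were thus among the lowest transcripts, and Ern1 was close to the limit of detection in single cells. Ddit3 shares 81 bases of exon with antisense genes including Mars, Atf5 shares 82 with Il4i1 and Nup62, and Eif2ak3 shares 485 with an antisense transcript. Smart-seq2, which amplifies full-length transcripts, does not mark the strand, so reads of those bases cannot be assigned.

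In the pooled neurons at day 3, only Atf5 passed the test, which used edgeR's quasi-likelihood fit over 13509 genes and asked for a change of over 2-fold at a p under 0.05 after Benjamini-Hochberg adjustment. That is 1 of 10 members higher and none lower, where 8.85% of all genes tested were higher (1196 of 13509, with 961 lower) and 16% passed in either direction. At an unadjusted p under 0.05, too, Atf5 alone passed, where 35.1% of all genes did. By limma with trend and DESeq2 no member passed both limits. Of the called genes, 55.4% were higher, and 43.7% when libraries were scaled by their totals alone. That scaling shifted the median over all genes to -0.14, against 0.02 in the fit used here. Since the 3 libraries of a side are parts of 1 lysate, these p-values measure technical spread only.

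Among the sensors, Ern1 had 0, 1 and 1 expected counts in the control pools and 4, 3 and 8 in the SNT pools, too few for a fold change (adjusted p = 0.332, edgeR). Eif2ak3 was at 16.5, 47.7 and 33.7 CPM in the control pools and at 38.9, 36.6 and 25 CPM in the SNT pools. Atf6 was at 22, 27.4 and 42.6 CPM against 39.5, 37.4 and 40.7 CPM. Eif2ak3 and Atf6 overlapped between sides, with log2 changes of 0.17 ± 0.32 and 0.55 ± 0.30 (SE, n = 3 against 3) and adjusted p of 0.771 and 0.188 by edgeR.

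Of the transcription factors, Atf5, an ATF4-like factor tied to the mitochondrial stress response, was at 12.4, 16.7 and 12.4 CPM in the control pools and at 20.3, 25.7 and 32.6 CPM in the SNT pools. Every SNT library was above every control library, and Atf5 rose by a log2 change of 1.07 ± 0.38 (adjusted p = 0.0319, edgeR). The call was lost in 4 of the 6 fits that left out 1 library (log2 changes of 0.87 to 1.25, adjusted p of 0.0286 to 0.189), namely without the first or the third control library or the second or the third SNT library. Atf4 was at 85.3, 85.8 and 69.2 CPM against 87.3, 96.6 and 94.8 CPM. The 2 sides of Atf4 did not overlap, by a narrow margin, and the log2 change of 0.36 ± 0.20 did not pass (adjusted p = 0.201, edgeR). Xbp1 was at 188, 129 and 160 CPM against 128, 87.0 and 117 CPM. All 3 SNT libraries of Xbp1 lay below the control libraries, with a log2 change of -0.35 ± 0.19 and an adjusted p of 0.178 by edgeR. Ddit3, the proapoptotic factor CHOP, was at 42.3, 59.6 and 51.1 CPM against 39.5, 42.7 and 42.7 CPM. Its sides overlapped (log2 change -0.14 ± 0.26, adjusted p = 0.744, edgeR).

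Of the downstream genes, Trib3, a pseudokinase that binds ATF4, had 3, 2 and 2 expected counts in the control pools and 11, 8 and 14 in the SNT pools, or 4.13, 2.38 and 3.55 CPM against 6.58, 6.96 and 6.99 CPM. The sides did not overlap, and the log2 change of 1.18 ± 0.74 did not pass (adjusted p = 0.268, edgeR). Asns, which makes asparagine, was at 516, 461 and 543 CPM against 427, 463 and 445 CPM. Hspa5, the main ER chaperone, was at 425, 409 and 437 CPM against 409, 361 and 317 CPM. Both overlapped between sides and had log2 changes of -0.03 ± 0.13 and -0.06 ± 0.14 (adjusted p of 0.918 and 0.788, edgeR). In all, Atf4, Atf5 and Trib3 had every SNT library above every control library, where 16.8% of all genes did, and Xbp1 had every one below, where 21.3% did. Ern1 was also above throughout, but its control mean of 0.99 CPM alone would not reach the limit of 1 CPM, so it is not set against that share. Fewer cells of a type and less RNA per cell cannot be told apart in the pools.

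**Figure D1:**
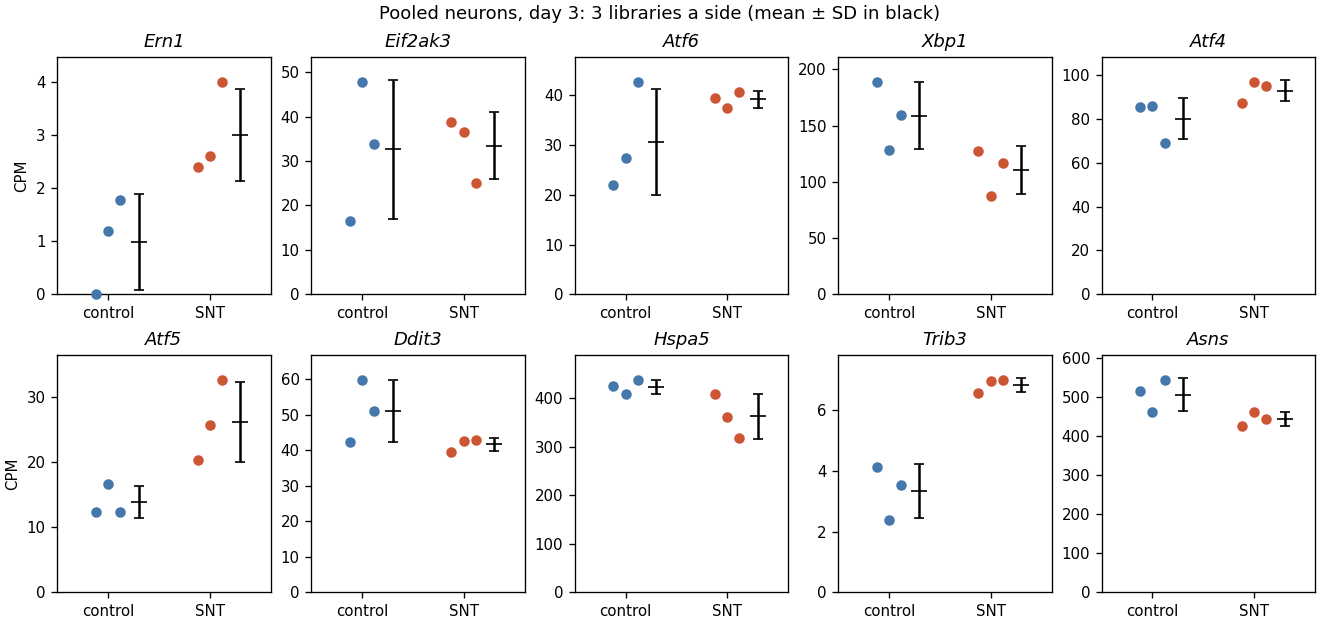
CPM of the 10 members in the pooled neurons, with 1 point a library (3 control, blue; 3 SNT, orange) and the mean ± SD in black, each panel from 0. Atf4, Atf5, Ern1 and Trib3 have the SNT libraries above and Xbp1 below all control libraries, while Hspa5, Asns, Ddit3, Atf6 and Eif2ak3 overlap.

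Markers of cells other than neurons were found in the pools to different degrees. All 10 markers of satellite glia and Schwann cells were present on both sides, summing to 12547, 15235 and 14739 CPM in the control pools and to 6126, 6934 and 6556 CPM in the SNT pools, with Apoe the most abundant. The 8 immune markers summed to a mean of 1.87 CPM in the control and 12.3 CPM in the SNT pools, with Ptprc at 0 on both sides. The 5 erythrocyte markers summed to a mean of 4.76 and 10.1 CPM (Hba-a1 the most abundant, Hba-a2 and Hbb-b2 at 0 on both sides), and the 6 endothelial and fibroblast markers to 40.4 and 33 CPM, led by Lum and by Dcn. The 8 neuron markers summed to 13091 and 21635 CPM, led by Nefl and by Tubb3. They did not move together. Tubb3, of microtubules, rose from 3102 ± 377 to 9157 ± 872 CPM (SD, n = 3), whereas Snap25, of synaptic vesicle release, went from 1747 ± 121 to 1143 ± 39.2 CPM and the nuclear protein Rbfox3 from 123 ± 9.48 to 62.8 ± 1.72 CPM, with log2 changes of 1.72, -0.45 and -0.80 and adjusted p of 2.84e-16, 0.00206 and 0.00183 by edgeR. Snap25 and Rbfox3 were named after their values were seen. Markers of neuron types moved as well. P2rx3, an ATP-gated channel of nonpeptidergic nociceptors, fell by 1.23 on the log2 scale (adjusted p = 5.36e-10), Th fell by 2.27 (adjusted p = 7.34e-13) and Nefh, of large myelinated neurons, rose by 1.19 (adjusted p = 2.86e-09), all by edgeR. The 4 nonpeptidergic markers summed to a mean of 2552 CPM in the control and 466 CPM in the SNT pools. Among them, Mrgprd went from 1011 to 1.07 CPM. The 3 peptidergic markers summed to 1846 and 979 CPM. Of the 4 markers of large neurons, Ntrk2, named here after its values were seen, had the other sign (-0.78 ± 0.16, adjusted p = 0.000221, edgeR). The part of these markers in the pooled values of the members was not tested.

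In single neurons at day 3 the mean of every member was higher on the SNT side, where 6409 of all 13663 genes had a ratio above 0. The signs of Ddit3 and Atf6 turned under other summaries. Only Trib3 went past 2-fold, the log2 ratio of means plus 1 CPM being 1.98. That is 1 of 10 members past 2-fold higher and none lower, where 13.2% of 13663 genes were past it in either direction, 973 of them higher. The median log2 ratio of the members was 0.40 and that of all genes -0.04. In the pools of the same day Xbp1, Ddit3, Hspa5 and Asns had the other sign, with log2 changes of -0.35, -0.14, -0.06 and -0.03, and none of these passed. Trib3 ran from 0 through a median of 1.95 to 18.1 CPM over 18 control cells and from 0 through 9.22 to 108 CPM over 41 SNT cells. The 2 sides overlapped, and 13 SNT cells (31.7%, exact Clopper-Pearson 95% interval 18.1% to 48.1%) lay above every control cell. Such an interval covers only the number of cells counted in this 1 sample, not the spread between animals. The means were 3.97 ± 4.96 and 18.6 ± 24.6 CPM (SD over cells), from 67 counts (exact Poisson 95% interval 51.9 to 85.1) and 1018 counts (956 to 1083). The intervals on counts cover counting error only, and amplified copies were counted as reads. Trib3 had no count in 7 of 18 control and 6 of 41 SNT cells, and in 10 and 12 after each cell was thinned to 200000 counts.

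Next by log2 ratio came Atf4, Atf5 and Asns. Asns ran from 148 through a median of 355 to 569 CPM in control cells and from 189 through 490.5 to 1304 CPM in SNT cells, with means of 356 ± 123 and 532 ± 231 CPM. It had more cells above the control range than any other member, 18 of 41 (43.9%, 28.5% to 60.3%), at a log2 ratio of 0.58. Atf4 ran from 20.2 through 86.7 to 204 CPM and from 60.8 through 124 to 508 CPM, with means of 93.5 ± 45.7 and 163 ± 115 CPM. Its log2 ratio was 0.80, and 10 of 41 SNT cells lay above every control cell. Atf5 had means of 16 ± 15.2 and 26 ± 26.3 CPM, a log2 ratio of 0.67 and 5 SNT cells above the control range. The upper tail thus held a minority of the SNT cells for each of these genes, and the medians moved less than the means.

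The other factors and sensors differed less between sides. The log2 ratios were 0.30 for Xbp1 (132 ± 66.8 and 162 ± 65.1 CPM), 0.27 for Eif2ak3 (31.6 ± 17.2 and 38.4 ± 25.1 CPM), 0.16 for Atf6 (34.4 ± 12.6 and 38.4 ± 15.7 CPM) and 0.50 for Ern1 (3.2 ± 3.58 and 4.89 ± 4.38 CPM), each smaller than the SD over cells. Ern1 had no count in 7 of 18 control and 6 of 41 SNT cells, and no count in 12 and 21 of them after thinning. Ddit3 spread in both directions. It ran from 31.9 through a median of 64.5 to 129 CPM in control cells and from 6.75 through 54.3 to 305 CPM in SNT cells, with 8 SNT cells above and 13 below every control cell. Its means were 67.9 ± 28.1 and 77.4 ± 73.7 CPM, a log2 ratio of 0.19, and the ratio of its medians was -0.24. Hspa5 ran from 238 through 354 to 547 CPM and from 177 through 368 to 918 CPM, with means of 368 ± 94.4 and 399 ± 151 CPM and a log2 ratio of 0.12.

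**Figure D2:**
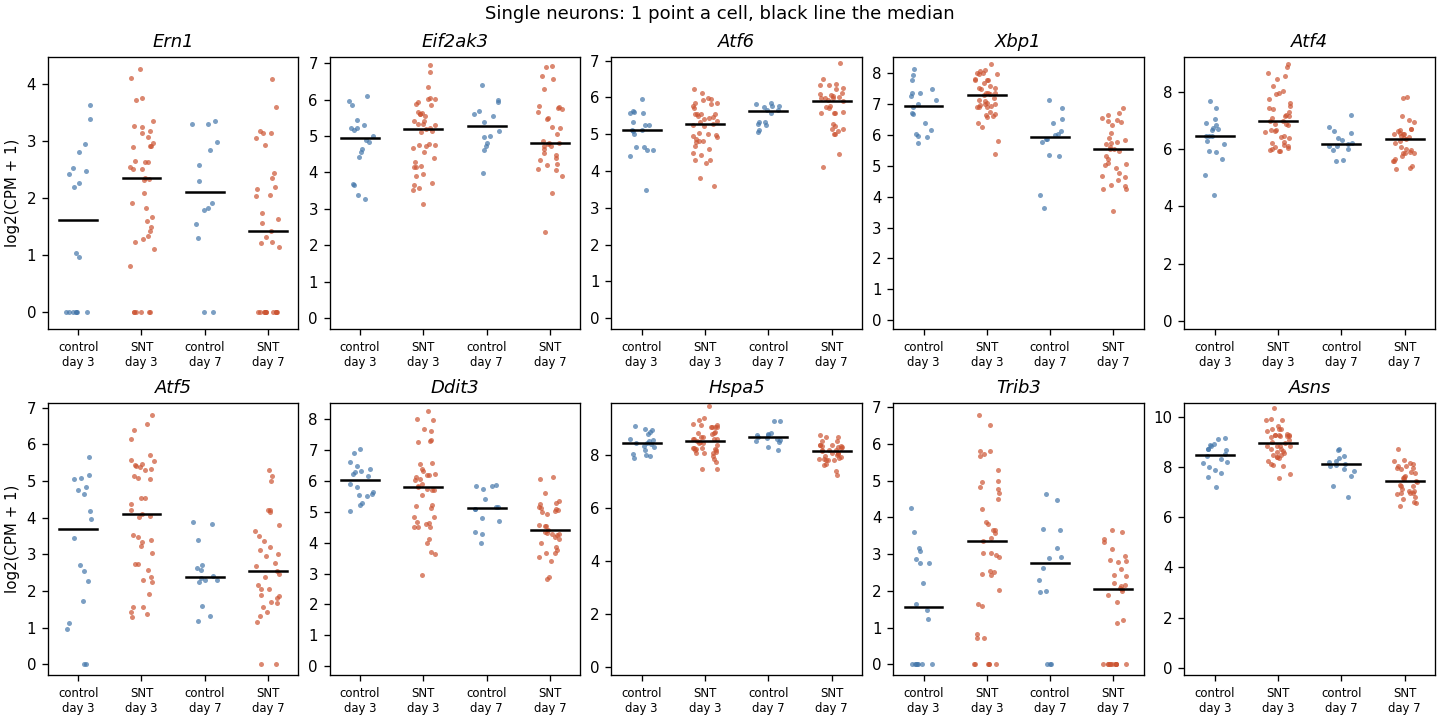
Expression of the 10 members as log2(CPM + 1) in single neurons of the control side (blue) and the SNT side (orange) at day 3 (18 and 41 cells) and day 7 (14 and 33 cells), 1 point a cell, with the median as a black line. Trib3, Atf4 and Asns have an upper tail in SNT cells at day 3, and Hspa5 and Asns sit lower in SNT cells than in control cells at day 7.

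The upper tails lay mostly in cells with P2rx3. Day-3 neurons were split at 100 CPM of P2rx3, which left 12 control and 22 SNT cells above the level and 6 and 19 below it, and 3 cells of each side lay between 50 and 200 CPM. This split was chosen after the data were seen, and P2rx3 itself fell in the pools. In P2rx3-high cells the mean of Trib3 was 3.2 ± 3.5 CPM on the control side and 28.9 ± 27.9 CPM on the SNT side, and 15 of 22 SNT cells were above every P2rx3-high control cell. In P2rx3-low cells it was 5.61 ± 7.2 and 6.59 ± 12.6 CPM, with 1 of 19 above. The log2 ratios of Trib3 were 2.85 and 0.20. Atf4 had means of 95.4 ± 38 and 210 ± 121 CPM in P2rx3-high cells (log2 ratio 1.13, 10 of 22 above) and of 89.7 ± 62.4 and 109 ± 81.3 CPM in P2rx3-low cells (log2 ratio 0.28, 2 of 19 above). Asns had means of 375 ± 141 and 648 ± 217 CPM in P2rx3-high cells (0.79, 16 of 22 above) and of 318 ± 73.0 and 399 ± 170 CPM in P2rx3-low cells (0.33, 6 of 19 above). With medians over cells in place of means, the log2 ratio of Atf4 in P2rx3-high cells was 0.84, short of 2-fold, and that of Trib3 was 3.02 in P2rx3-high and -0.61 in P2rx3-low cells. The difference between the 2 splits was not tested, since each side is 1 sample.

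Ddit3 differed in sign between the splits, with means of 71.2 ± 31.6 and 104.0 ± 81.2 CPM in P2rx3-high cells (log2 ratio 0.54) and of 61.3 ± 20.3 and 46.6 ± 50.1 CPM in P2rx3-low cells (-0.39). The median of Ddit3 in P2rx3-low cells was 63.8 CPM on the control and 24.4 CPM on the SNT side. In P2rx3-low cells 1 SNT cell weighed heavily. It lay near the level, at 52.5 CPM of P2rx3, and had 109 CPM of Atf5, and without it the ratios were 0.14 for Atf5, 0.05 for Atf4, 0.21 for Asns, -0.58 for Ddit3, -0.42 for Trib3 and -0.05 for Hspa5. With it, Atf5 had ratios of 0.83 and 0.75, Xbp1 of 0.41 and 0.29, Ern1 of 0.89 and -0.10, Eif2ak3 of 0.33 and 0.37 and Atf6 of 0.02 and 0.28 in P2rx3-high and P2rx3-low cells. The ratios of Hspa5 were smaller, at 0.18 and 0.08, with means of 382 ± 99.2 and 434 ± 118 CPM in P2rx3-high cells. In all, 2 of 10 members, Trib3 and Atf4, went past 2-fold higher in P2rx3-high cells, where 8.87% of genes were higher and 7.91% lower, and none went past it in P2rx3-low cells, where 8.27% were higher and 7.67% lower. The P2rx3-high control cells included cells with Th (mean 750.4 CPM, at most 4804), a marker of C-fibre low-threshold mechanoreceptors, while Th reached at most 30.6 CPM in P2rx3-high SNT cells. In P2rx3-high cells of the control and the SNT side, Mrgprd had medians of 686 and 0.82 CPM, and Calca, of peptidergic neurons, of 1329 and 261 CPM. The part of these markers in the ratios was not tested. The P2rx3-low groups differed in neuron type as well. Calca had a mean of 9981 CPM (median 11394) in P2rx3-low control cells and of 2003 CPM (median 13.7) in P2rx3-low SNT cells, and Pvalb, of proprioceptors, had means of 1.64 and 80.2 CPM, and their part was not tested either.

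**Figure D3:**
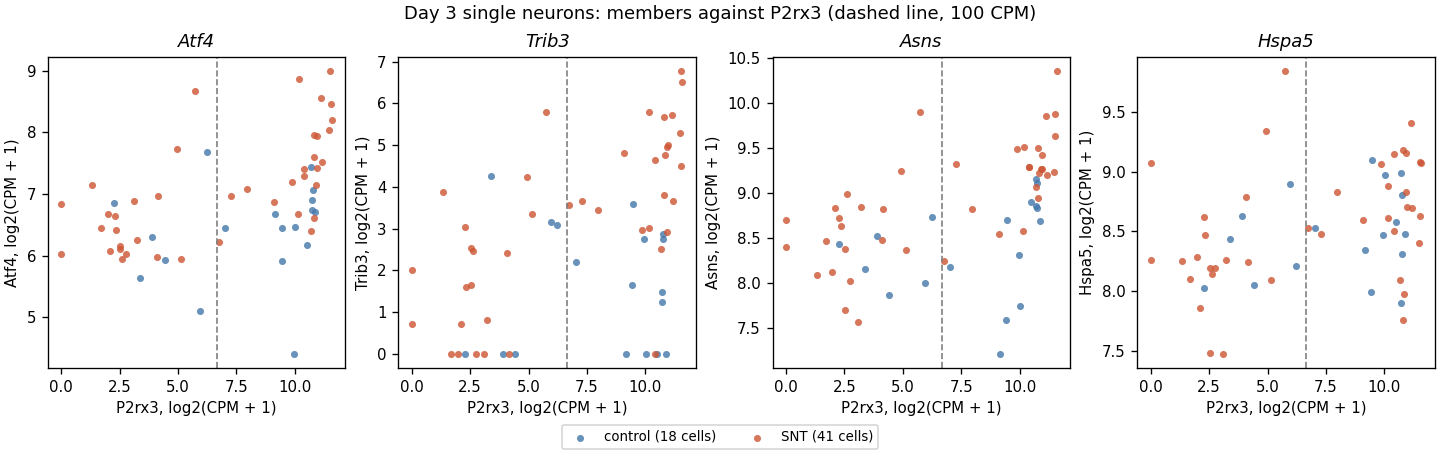
Atf4, Trib3, Asns and Hspa5 against P2rx3 in day-3 neurons, both as log2(CPM + 1), with 18 control (blue) and 41 SNT cells (orange) and a dashed line at 100 CPM of P2rx3. To the right of the line most SNT cells lie above the control cells for Trib3 and Asns, and the sides overlap for Hspa5 and to the left of the line.

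Some of the members varied together from cell to cell. Over the 41 SNT cells at day 3, the 15 pairs of Xbp1, Atf4, Atf5, Ddit3, Trib3 and Asns had Spearman's rho of 0.56 to 0.80 (median 0.68). All 45 pairs of the 10 members had a median of 0.41 (-0.10 to 0.80) over these cells and of 0.12 over the control cells. The 15 pairs had a median of 0.20 over 18 control cells, of -0.01 over 14 day-7 control cells and of 0.11 over 33 day-7 SNT cells. These 6 genes were grouped after the values were seen. The cells of a group share depth differences and neuron types, and rho with the total count was between -0.18 and 0.17 for the 6 genes over the day-3 SNT cells, while rho with P2rx3 was 0.69 to 0.76 and with Nefh -0.81 to -0.47. Within the 22 P2rx3-high SNT cells the pairs had a median rho of 0.50 (0.31 to 0.79), and within the 19 P2rx3-low SNT cells of 0.35 (-0.02 to 0.43). In control cells the medians were 0.31 over the 12 P2rx3-high and 0.43 over the 6 P2rx3-low cells, and within a split the 2 sides lay closer than over all cells (0.68 and 0.20). Over all 45 pairs the medians were 0.35 in SNT and 0.16 in control cells that were P2rx3-high, and 0.22 and 0.03 in those that were P2rx3-low, where the order of the sides was the other way from that of the 15 pairs. The strongest pair over all 41 cells was Atf4 with Xbp1, at 0.80. Hspa5 had rho of 0.38 to 0.62 with the 6, whereas Atf6 and Eif2ak3 had 0.04 to 0.16 and 0.11 to 0.41.

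**Figure D4:**
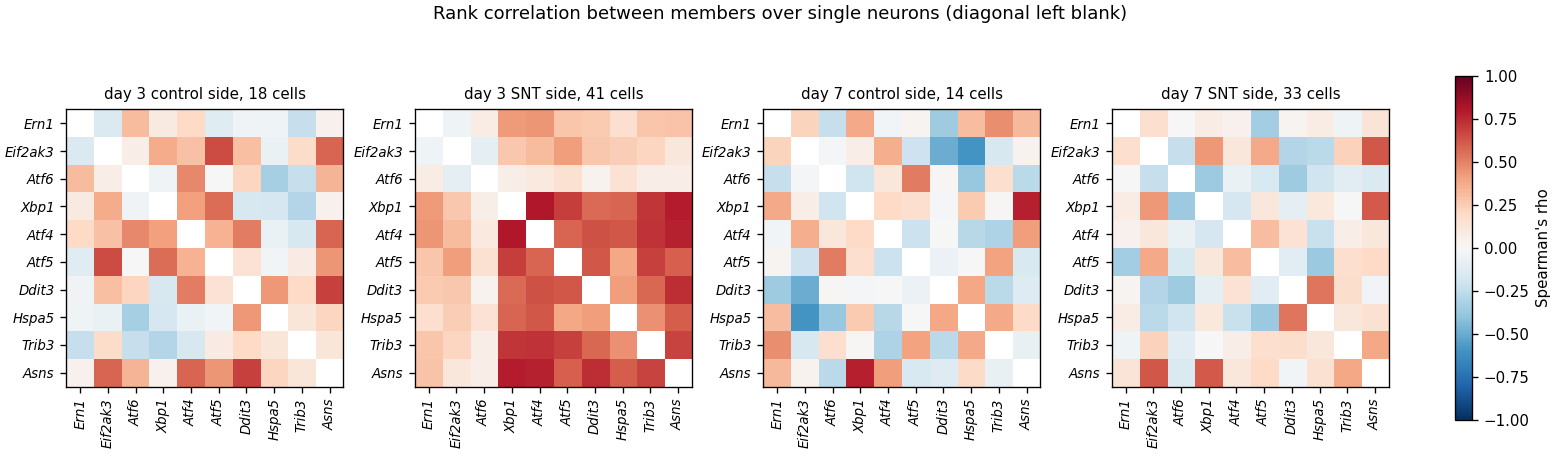
Spearman's rho between the 10 members over single neurons, from -1 (blue) to 1 (red), in the day-3 control (18 cells), day-3 SNT (41), day-7 control (14) and day-7 SNT groups (33). The block from Xbp1 to Asns is red throughout in day-3 SNT cells, with a median rho of 0.68 for 6 of its genes, and mixed in the other groups.

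The SNT side holds cells with and without Atf3. At day 3 the 30 SNT cells with Atf3 above every control cell started at 951 CPM of Atf3, and the other 11 reached at most 23 CPM. Their means of Trib3 were 22.5 and 7.92 CPM, of Atf4 188 and 97.7 CPM, of Asns 569 and 432 CPM, of Xbp1 173 and 132 CPM, of Ddit3 85.1 and 56.3 CPM and of Hspa5 413 and 362 CPM. Atf5 was at 26.4 and 24.8 CPM. The medians had the other sign for Ddit3, at 53.3 and 55.6 CPM, and for Atf5, at 12.8 and 22.4 CPM. The Atf3-low SNT cells thus lay close to the control cells for Atf4, with a mean of 93.5 CPM, and between the control cells and the Atf3-high cells for Trib3 and Asns. The 30 and the 11 cells also differed in neuron type, with means of 542 and 5219 CPM of Calca and of 3.67 and 520 CPM of Mrgprd, a receptor of nonpeptidergic nociceptors, and the part of these types was not tested. Over the 22 P2rx3-high SNT cells rho with Atf3 was 0.67 for Atf4, 0.60 for Asns, 0.57 for Xbp1, 0.53 for Ddit3 and 0.47 for Trib3, and 0.12 for Atf5 and 0.15 for Hspa5. These 22 cells include both Atf3-low and Atf3-high cells (2.03 to 3145 CPM of Atf3), so rho partly restates the contrast above. A graded relation was not tested.

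At day 7 no member went past 2-fold in either direction, where 6.37% of 13320 genes did higher and 3.49% lower. The median log2 ratio of the members was -0.37 and that of all genes -0.03. Hspa5 ran from 294 through a median of 409 to 634 CPM in 14 control cells and from 152 through 288 to 438 CPM in 33 SNT cells, and 20 of the 33 lay below every control cell. Its means were 427 ± 99.4 and 285 ± 69.5 CPM, a log2 ratio of -0.58. Asns ran from 111 through 273 to 419 CPM and from 86.3 through 171 to 414 CPM, with means of 272 ± 86.2 and 188 ± 76.9 CPM and a log2 ratio of -0.53. Trib3 had means of 7.44 ± 7.4 and 3.5 ± 3.5 CPM, a log2 ratio of -0.91 from 74 counts (58.1 to 92.9) and 66 counts (51.0 to 84.0). Its highest SNT cell had 11.5 CPM, and 4 of 14 control cells were above it.

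Ddit3 had means of 35.9 ± 14.8 and 25.3 ± 15.1 CPM at day 7 (log2 ratio -0.49), with 8 of 33 SNT cells below every control cell. Xbp1 had means of 64.1 ± 34.8 and 50.2 ± 29 CPM (-0.35), and Ern1 of 4.31 ± 3.3 and 3.04 ± 3.83 CPM (-0.39). Eif2ak3 and Atf4 were close to equal between sides, with ratios of -0.03 and 0.12. Atf6, the sensor that is cleaved in the Golgi, had means of 45.6 ± 8.59 and 56.2 ± 21.7 CPM (0.30), and 17 of 33 SNT cells (51.5%, 33.5% to 69.2%) lay above every control cell, while 4 lay below. Atf5 had means of 5.50 ± 3.95 and 8.54 ± 9.66 CPM (0.55). The neuron types differed between the sides too, with means of 4.05 and 160 CPM of Pvalb and 11 of 33 SNT cells above every control cell for it. The part of Pvalb-rich cells in the members' ratios was not tested. Both sexes gave the same sign for 7 members. In females and males the ratios were -0.57 and -0.59 for Hspa5, -0.57 and -0.47 for Asns, -0.56 and -1.16 for Trib3 and -0.92 and -0.16 for Ddit3, over 7 control and 16 SNT cells and 7 and 17 cells.

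Within the SNT cells of day 7, 12 had Atf3 above every control cell and 21 did not. Eif2ak3 had a mean of 67.7 ± 32.7 CPM in the 12 and of 24.5 ± 12 CPM in the 21, with a control mean of 41.2 CPM between them. Xbp1 had 68.5 ± 30.8 and 39.8 ± 22.5 CPM and Asns 236 and 161 CPM. Hspa5 was the other way, at 241 ± 73.6 and 310 ± 54.1 CPM, as was Ddit3, at 17.5 ± 15.8 and 29.7 ± 13.2 CPM. The day-7 cells were mostly rich in Nefh, with medians of 2640.1 CPM in control and 2762 CPM in SNT cells, against 91.2 and 144 CPM at day 3, and only 4 control and 6 SNT cells reached 100 CPM of P2rx3. The 12 cells had a mean of 1747 CPM of Nefh and 85.0 CPM of Calca and the 21 had 4060.3 and 3658 CPM, and the part of these neuron types in the values was not tested.

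Markers of other cell types were also found in the libraries of single neurons. The 10 glial markers summed to a mean of 5320 CPM in control and 4766 CPM in SNT cells at day 3, and 5444 and 3622 CPM at day 7 (medians 3770.4 and 3806 CPM, and 5197 and 1503 CPM), all 10 being present in each group and led by Apoe. The 8 immune markers had medians of 2.15 and 12.9 CPM at day 3 and of 0 and 3.5 CPM at day 7. A single SNT cell of day 3 held 1710 CPM of S100a8 and 1297 CPM of S100a9, neutrophil genes that reached at most 17 CPM in the other day-3 SNT cells. Without it the day-3 log2 ratios were 1.8 for Trib3, 0.72 for Atf4, 0.58 for Atf5, 0.55 for Asns and 0.08 for Ddit3. At day 7, 1 SNT cell held 757 CPM of the immune markers (the next 146), with 340 CPM of S100a8, and another held 4670.1 CPM of the erythrocyte markers (the next 35.1). Without these 2 cells the day-7 ratios were -0.58 for Hspa5, -0.54 for Asns, -0.95 for Trib3 and -0.56 for Ddit3. The erythrocyte markers had medians of 7.76 and 3.82 CPM at day 3 and of 9.70 and 5.83 CPM at day 7, and the endothelial and fibroblast markers, led by Dcn, of 22 and 19.3 CPM and of 21.9 and 38 CPM. Calca, of peptidergic neurons, had means of 4942 and 1796 CPM at day 3. Their part in the members' values was not tested.

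The genes around the members were followed in lists. Of 21 ATF4 targets of amino acid supply, 20 were tested in the pools, where 3 were higher and 4 lower, against 1196 and 961 of all 13509 genes (median log2 change 0.45, all genes 0.02). The amino acid transporters Slc1a4 (1.97 ± 0.17, adjusted p = 3.71e-12) and Slc7a5 (1.58 ± 0.48, adjusted p = 0.0132) rose and Slc1a5 fell by 1.51 (adjusted p = 0.00016), by edgeR. The other gene called higher, Slc7a3, had no count in the control pools and a mean of 4.08 CPM in the SNT pools. It reached the limit of 1 CPM only through the SNT side, so its call among the 3 is not read as a result. In day-3 cells 6 of 20 were past 2-fold higher and none lower, against 973 and 830 of all 13663 genes, at a median log2 ratio of 0.71 (all genes -0.04). They include the glutathione-degrading enzyme Chac1, at 11.3 and 65.4 CPM (log2 ratio 2.43), and the branched-chain aminotransferase Bcat1, at 29.3 and 149 CPM (2.31). The P2rx3-high cells had 10 of 20 past 2-fold higher (median 1.0) and the P2rx3-low cells 3 of 19, with 1 lower (median 0.30), where all genes had the shares given above for these groups. Chac1 had means of 8.36 and 97.0 CPM in P2rx3-high cells and of 17.3 and 28.9 CPM in P2rx3-low cells. The latter means rest on few cells. The highest control cell had 66.4 CPM and the mean without it was 7.44 CPM, the 2 highest SNT cells had 227 and 188 CPM and the mean without them was 7.86 CPM, and the medians were 5.38 and 7.62 CPM. At day 7 none of 18 was past 2-fold higher and 2 were lower, where 6.37% of 13320 genes were higher and 3.49% lower. The list median was -0.24 (all genes -0.03), and Chac1 was at 12.5 and 10.4 CPM.

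Among the 20 cytosolic aminoacyl-tRNA synthetases, which load tRNA with amino acids, 4 rose in the pools, where 8.85% of all genes did, and none fell (median 0.70), and 13 were higher by adjusted p alone, where 14% of all genes were. The 4 were Aars (1.45 ± 0.15, adjusted p = 6.39e-10), Wars (1.23 ± 0.16, adjusted p = 1.3e-07), Kars (1.06 ± 0.17, adjusted p = 6.74e-06) and Hars (1.05 ± 0.16, adjusted p = 2.84e-06), by edgeR. In day-3 cells 19 of 20 had a log2 ratio above 0, as had 6409 of all 13663 genes, and 2 were past 2-fold higher, as were 973 of all genes, Aars at 163 and 397 CPM (1.28) and Cars at 27.4 and 69.1 CPM (1.30), with a list median of 0.56. Yars was at 134 and 227 CPM. The list median was 0.44 in P2rx3-low and 0.70 in P2rx3-high cells, a difference that was not tested. At day 7 the median was -0.19 (all genes -0.03), and 4 of 20 were above 0, against 6275 of all 13320 genes. Of 12 other ATF4 targets, 8 were tested, where Eif4ebp1, an inhibitor of cap-dependent translation, rose (2.36 ± 0.47, adjusted p = 0.000138, edgeR) and Nupr1 fell by 3.3 (adjusted p = 0.0115), 1 of 8 in each direction, against 1196 and 961 of all 13509 genes. Their medians were 0.02 in the pools (-0.14 with libraries scaled by their totals alone), 0.13 at day 3 and 0.33 at day 7. Eif4ebp1 was at 11 and 30.4 CPM in day-3 cells, Vldlr at 17.7 and 33.7 CPM and Ddit4 at 22.3 and 26.6 CPM. The pools had the other sign for the last 2, with means of 49.9 and 30 CPM for Vldlr, whose libraries did not overlap, and of 27.6 and 19.4 CPM for Ddit4, and neither passed (log2 changes -0.57 and -0.41).

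None of 18 ER chaperones and folding enzymes passed the test in the pools, where 16% of all genes did (median -0.17), and none was past 2-fold in single cells at day 3 (median 0.05, and -0.05 from the medians over cells) or day 7 (median -0.12), where 13.2% of all genes were at day 3 and 6.37% higher and 3.49% lower at day 7. Sil1, which helps BiP release nucleotide, was at 29.7 and 16.1 CPM at day 3 (log2 ratio -0.84), and Pdia4, a disulfide isomerase, at 50.4 and 28.8 CPM at day 7 (-0.78). None of 15 tested genes of ER-associated degradation and the translocon passed both limits. By adjusted p alone 3 were higher and 2 lower, where 14% of all genes were higher and 10.8% lower. These were, named after their values were seen, the ubiquitin ligase Syvn1 (0.94), the lectin Os9 (0.86) and the ATPase Vcp (0.50), and Herpud1 (-0.97) and the mannosidase-like Edem1 (-0.76), as log2 changes with adjusted p of 0.000766, 0.0041, 0.00149, 0.00129 and 0.0179 by edgeR. The list medians were 0.19 in the pools, 0.03 at day 3 and -0.06 at day 7. Edem2 was at 48.3 and 25.4 CPM and Edem3 at 21.7 and 39.8 CPM at day 7. Of the other 10 UPR sensors and processing genes none passed both limits and 1 was higher by adjusted p alone (median 0.53), with medians of 0.31 and -0.10 over the 9 tested in single cells. The ER membrane protein Tmbim6 was at 255 and 442 CPM in day-3 cells but at 418 ± 41 and 327 ± 23.5 CPM in the pools, where every SNT library was the lower (log2 change -0.19, not called). Creb3l1 was at 10.1 and 4.67 CPM in day-3 cells.

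Of 15 integrated stress response kinases and eIF2 components, Eif2b4, a subunit of the eIF2 exchange factor, alone passed, where 16% of all genes passed in either direction (1.25 ± 0.25, adjusted p = 0.000148, edgeR), at a list median of 0.15 that was -0.01 when libraries were scaled by their totals alone. Single-cell medians of that list were 0.21 and -0.19. Ppp1r15a, the stress-induced eIF2α phosphatase subunit GADD34, was at 57.0 and 92.2 CPM in day-3 cells and at 33.9 and 22.8 CPM in day-7 cells. In the pools every SNT library of Ppp1r15a was below every control library, at 73.9 ± 2.14 and 58.8 ± 5.07 CPM, and the log2 change of -0.18 did not pass. Dnajc3, an inhibitor of eIF2 kinases, was at 86.7 and 63.1 CPM and at 64.6 and 42 CPM. Of 8 mitochondrial chaperones and proteases, Lonp1 alone rose in the pools, 1 of 8 where 8.85% of all genes did (1.40 ± 0.36, adjusted p = 0.00264, edgeR), with medians of -0.02, 0.12 and -0.29 in the pools, at day 3 and at day 7. Hspa9 was at 229 and 400.3 CPM in day-3 cells and Trap1 at 140.4 and 87.4 CPM in day-7 cells.

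Of 12 cytosolic heat shock genes, the small heat shock protein Hspb1 (2.86 ± 0.14, adjusted p = 6.41e-20) and the co-chaperone Bag3 (1.07 ± 0.15, adjusted p = 5.9e-07) rose in the pools by edgeR, 2 of 12 where 8.85% of all genes rose, with list medians of 0.40, 0.11 and -0.20. Hspb1 was at 761 and 2085 CPM at day 3, Hspb8 at 486 and 818 CPM, and Hspa1a at 12.3 and 4.74 CPM at day 7. Early-response genes, which can be induced by dissociation, were followed as a sign of handling. Of 5 tested, 4 passed, where 16% of all genes did. Dusp1 rose (1.64 ± 0.21, adjusted p = 4.8e-08) and Ier2 (-1.8 ± 0.58, adjusted p = 0.0192), Fos (-1.37 ± 0.24, adjusted p = 2.69e-05) and Egr1 (-1.08 ± 0.40, adjusted p = 0.0402) fell by edgeR. In single cells their medians were -0.21 at day 3, or 0.32 from the medians over cells, and -0.85 at day 7. Fos was at 37.4 and 38.5 CPM at day 3 and at 35.1 and 14.7 CPM at day 7. Junb was higher on the SNT side at day 3, at 38.6 and 53.7 CPM, and lower at day 7, at 38.7 and 16.6 CPM. Over day-3 SNT cells rho of the members with Fos lay between -0.19 and 0.11. The part of handling in the members' values was not tested.

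**Figure D5:**
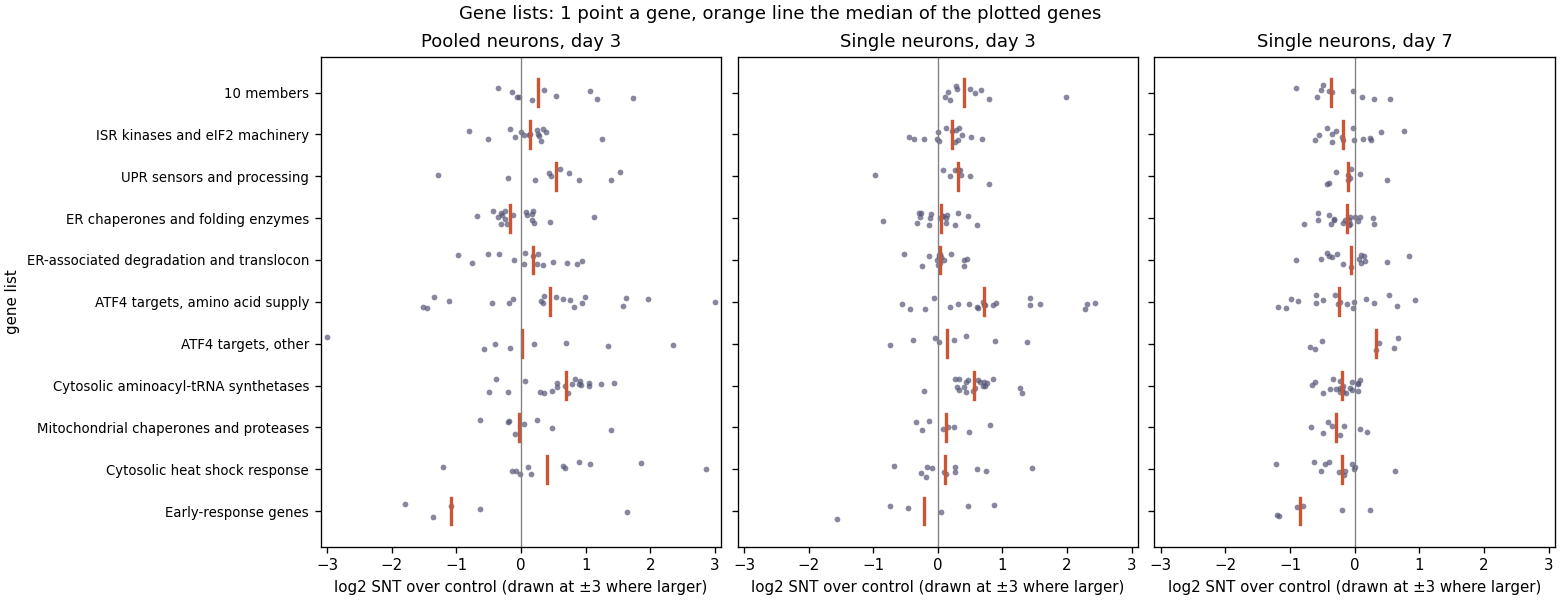
Log2 differences between the SNT and the control side for the 10 members and the 10 gene lists in the pooled neurons, day-3 cells and day-7 cells, 1 point a gene, with the median of the plotted genes in orange and values past 3 drawn at 3. The amino acid supply genes and the aminoacyl-tRNA synthetases lie mostly right of 0 at day 3 (medians 0.71 and 0.56) and left of it at day 7 (-0.24 and -0.19), and the ER chaperones have medians of -0.17 in the pools, 0.05 at day 3 and -0.12 at day 7.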

How the data were processed

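Per the labels and the paper's methods, the authors picked DRG neurons by hand, made Smart-seq2 libraries and used CASAVA 1.8.2, bowtie2 and RSEM on RefSeq exons of mm9, with ribosomal RNA removed. The deposited tables are named TPM but hold expected counts, since library totals run from 223967 to 2003817 and 60.7% to 93.6% of values above 0 in a library are exactly whole (tolerance 0) in tables with up to 2 decimals. Each count was divided by its library total to give CPM. The table without outliers gave the cells and the full table the pools. All value columns were used.

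Pooled counts were rounded and tested with edgeR 4.0.16 (TMM, quasi-likelihood, prior count 0.125, mean of at least 1 CPM) in R 4.3.3, tested on simulated data first. limma 3.58.1 and DESeq2 1.42.0 were alternatives. Cells were summarised in Python 3.11.15 without a test. Ratios are log2 of mean CPM plus 1, for genes reaching 1 CPM on average. Members and gene lists were chosen with earlier results of these data known. Of each list the text names up to 4 genes that changed most in the pools and up to 2 more by their ratio in cells, where one side has at least 10 CPM. Marker lists give their most abundant gene and those at 0. Promoters came from RefSeq (GRCm38.p6) and exons from GENCODE M21, and none of their coordinates were used with mm9.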

Additional observations from a re-analysis of the deposited data

Results flagged for a closer look

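Trib3 and Asns had ratios of opposite sign in the single neurons of the 2 days, both at least 0.5 in size. The log2 ratio of Trib3 was 1.98 at day 3 and -0.91 at day 7, and that of Asns 0.58 at day 3 and -0.53 at day 7. In the pools of day 3 the log2 change was 1.18 ± 0.74 for Trib3 and -0.03 ± 0.13 for Asns (SE), and neither passed. The sizes in cells depended on the summary. With 10 CPM in place of 1 CPM added to each mean, Trib3 was at 1.03 and -0.37, and over the alternatives run for the cells of each day Asns ranged from 0.46 to 0.63 at day 3 and from -0.68 to -0.47 at day 7, so that both genes fell short of 0.5 in size under some of them, while the signs held under each. The difference between days was not tested, since each side and day is 1 sample, and day cannot be told apart from strain, sex, read length, sequencer and the neuron types picked.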

How the results depend on the processing

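For the pools, 7 of 10 members kept their sign under every alternative, as did 8 of 10 for day-3 cells and 7 of 10 for day-7 cells. The log2 change of Atf5 was 0.91 with libraries scaled by their totals alone (adjusted p = 0.0711), short of both limits, 1.06 by DESeq2 (adjusted p = 0.108) and 0.98 by limma with trend (adjusted p = 0.0456), each short of 1 of the 2 limits, and 0.87 to 1.25 when 1 library was left out. Leaving out 1 library turned the sign of 3 members without a call. The range was -0.18 to 0.59 for Eif2ak3 (below 0 without the first control library), -0.10 to 0.03 for Asns (0.0252 without the third control and 0.0237 without the first SNT library) and -0.14 to 0.03 for Hspa5 (0.0253 without the third SNT library). The cause was not tested. Same-numbered libraries of the 2 sides had correlations of 0.0589, -0.0164 and -0.00670, so the numbers do not pair them. With a replicate block 1137 genes were higher and 872 lower, in place of 1196 and 961, and Atf5 was at 1.05 (adjusted p = 0.0391). In day-3 cells the ratio of Atf6 was -0.04 after thinning to 200000 counts and that of Ddit3 fell below 0 with the median or with the mean of log2(CPM + 1). At day 7 Atf4 and Eif2ak3 changed sign in females, Eif2ak3 also after thinning, and Ern1 in males. Trib3 ranged from 1.03 to 2.07 at day 3 and from -1.16 to -0.37 at day 7. Alternatives chosen after the data were seen were the omission of the day-3 cell with neutrophil genes, of the 2 day-7 cells richest in immune and erythrocyte markers and of 1 P2rx3-low cell near the level, a P2rx3 level of 500 CPM, with ratios of Trib3 of 3.00 above and 0.37 below it, and medians in the P2rx3 groups, where Ddit3 in P2rx3-low cells went to -1.35. Depth limits Ern1 and Trib3, for which 3 counts are 2.19 to 10.8 CPM in a day-3 control cell and 1.62 to 4.90 CPM in a day-3 SNT cell.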

Other observations

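The 11 day-3 cells that the authors left out as outliers differed from the others in some members. Asns had a mean of 18.5 CPM in the 4 control cells and 11.6 CPM in the 7 SNT cells left out, with at most 41.1 and 36.4 CPM, where the lowest kept cells of the 2 sides had 148 and 189 CPM. Hspa5 had means of 211 and 412 CPM, Atf4 of 91.7 and 123 CPM, Eif2ak3 of 6.90 and 9.65 CPM and Trib3 of 1.07 and 1.95 CPM in the same cells.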
